A study of Sus scrofa with 8 samples.

Results

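The fatty acid elongases ELOVL1 to ELOVL7 and the desaturases FADS1, FADS2 and FADS3 were examined in the liver transcriptomes of young and old sows. Members were chosen by gene symbol. Of the 10 genes on this list, 7 were matched to a row of the mRNA table (ELOVL2, ELOVL3, ELOVL4, ELOVL5, FADS1, FADS2 and FADS3), out of 21607 mRNA identifiers, of which 11654 have a symbol. ELOVL1, ELOVL6 and ELOVL7 were not matched and were not analysed here. All animals were sows of the Yana breed, and the age groups were 180 days (young, n = 2) and 8 years (old, n = 2). They were healthy and untreated, fasted overnight before slaughter and had no recent common ancestry. Each sow gave 1 rRNA-depleted RNA-seq library of whole liver tissue, so a replicate is an animal, and the design asks how the transcriptome of the liver differs with age. The young sows had never given birth, whereas the old sows had done so over many years and were then culled. Age therefore cannot be told apart from parity and reproductive state. In bulk tissue, fewer cells of a type and less RNA per cell cannot be told apart.

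Polyunsaturated fatty acids are made in the liver from dietary precursors by alternating desaturation and elongation in the endoplasmic reticulum. FADS2 carries out the first and usually rate-limiting desaturation, ELOVL5 lengthens its products, FADS1 desaturates them again to give arachidonic and eicosapentaenoic acid, and ELOVL2 acts on the longest intermediates on the way to docosahexaenoic acid (DHA), which is completed by shortening in peroxisomes. ELOVL enzymes perform the condensing step of an elongation cycle shared with a reductase, a dehydratase and a second reductase, and the desaturases take electrons from cytochrome b5. The genes for FADS1, FADS2 and FADS3 are neighbours in mammals, and no other protein-coding gene lies among them in the pig RefSeq annotation.

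The values are CPM, the reads of a gene scaled to the total of its library, which were made by the authors and are, as deposited, whole reads times a fixed step per library. Because no gene length enters them, they were compared between libraries and not between genes. The listed mRNAs and lncRNAs held 51494798 and 52207649 reads in young replicates 1 and 2, and 28324675 and 31630060 in old replicates 1 and 2. Over mRNAs with a mean of at least 1 CPM, the median absolute log2 gap was 0.40 between the old livers and 0.34 between the young livers. Old replicate 1 stood apart in interferon-stimulated genes. Its summed CPM over 9 interferon-stimulated genes was 1470, against 17.8 to 29.5 in the other libraries. The liver was checked with hepatocyte markers, whose 10 matched genes were above 0 in every library and led by albumin (ALB) at between 16534 and 35205 CPM.

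ELOVL2 was lower in both old livers than in either young liver. The level of ELOVL2 (ENSSSCG00000001045) was 6.94 CPM in young replicate 1 (637 reads), 16.6 CPM in young replicate 2 (1441 reads), 1.61 CPM in old replicate 1 (99 reads) and 0.306 CPM in old replicate 2 (22 reads). The age groups did not overlap, and the mean of the young livers was 12.3 times that of the old livers. The spread within each group was also wide. The 95% Poisson interval of the count was 6.41 to 7.5 CPM in young replicate 1 and 15.8 to 17.5 CPM in young replicate 2, and these did not overlap each other, nor did those of the old livers (1.31 to 1.96 and 0.192 to 0.464 CPM). Such intervals cover counting error only, as PCR reads are not independent molecules. Thus the sows of 1 age differed by more than counting error in this gene.

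On the log2(CPM + 1) scale, which understates the change of low genes, the log2 fold change of ELOVL2 in old against young livers was -2.68 (standard error 0.61, 95% interval -4.53 to -0.84). In limma it did not pass adjustment over all 16898 mRNAs tested (unadjusted p = 0.018, adjusted p = 0.247). Only 20 of these mRNAs (0.118%) had a more negative fold change. On the reads themselves, edgeR's exact test with common and tagwise dispersions gave -3.44 with an adjusted p-value of 0.0132, and DESeq2 gave -3.47 with 0.00836. The call depended on how the spread was modelled. The exact test gave an adjusted p-value of 0.0536 with the dispersions of estimateDisp, and edgeR's quasi-likelihood test gave 0.280. When libraries were left out in turn, an age group held a single liver, so fold changes are given. In the exact test with common and tagwise dispersions ELOVL2 was at -3.93 without young replicate 1 and -2.60 without young replicate 2. It was at -5.08 without old replicate 1 and -2.685 without old replicate 2. The call was lost without young replicate 2 and without old replicate 2. In limma the fold change ranged from -3.26 to -2.10.

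**Figure D1:**
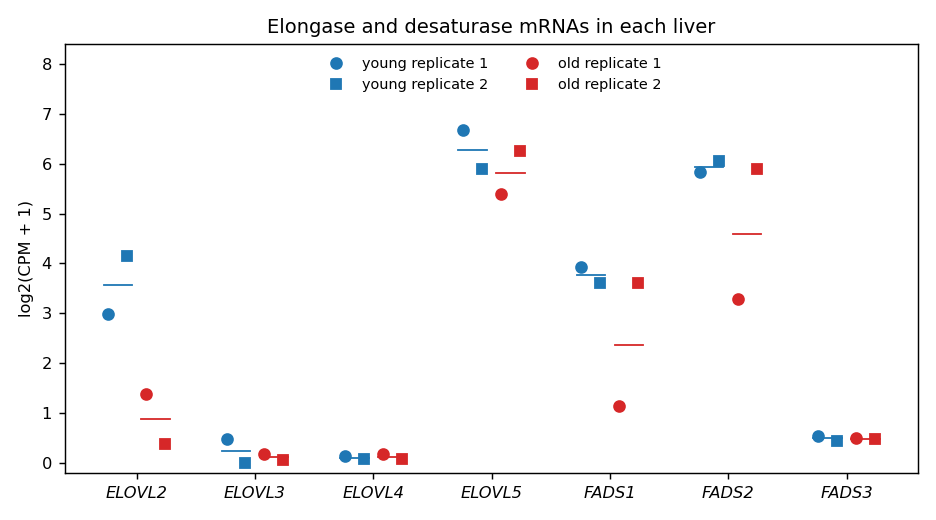
Level of each matched elongase and desaturase mRNA as log2(CPM + 1), with 1 point per liver (blue, young; red, old; circles, replicate 1; squares, replicate 2) and a short line at the mean of each age group. ELOVL2 is lower in both old livers, FADS1 and FADS2 are low in old replicate 1 only, and ELOVL3, ELOVL4 and FADS3 lie near 0; CPM is not per length, so points are comparable within a gene only.

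ELOVL5, the elongase that acts between the desaturation steps, did not separate the age groups. ELOVL5 (ENSSSCG00000024149) had 100.8 and 58.1 CPM in young sows and 40.9 and 75.1 CPM in old sows. Old replicate 1 was the lowest library and old replicate 2 lay between the young livers. The log2 fold change was -0.46 (standard error 0.47, 95% interval -1.88 to 0.97, adjusted p = 0.706, limma), so neither a fall of more than 1 log2 unit nor a rise of almost 1 log2 unit lay outside the interval. With 1 library left out it ranged from -0.89 to -0.03.

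The remaining matched elongases were at the edge of detection in these livers. ELOVL3, which is known for saturated and monounsaturated very long chains in skin and brown fat, had 36 and 0 reads in young sows and 8 and 3 reads in old sows. Its 0.392 CPM in young replicate 1 was the only value above 0.13 CPM, and the count of 0 in young replicate 2 allows up to 0.0347 CPM (3 reads). ELOVL4, the elongase of the very longest chains in retina, brain and skin, had 9 and 5 reads in young sows and 8 and 4 in old sows. The age groups overlapped in both genes. Their log2 fold changes were -0.12 (95% interval -0.79 to 0.55) and 0.02 (-0.33 to 0.37), and at this depth no difference was detectable. With a pseudocount of 0.1 the intervals widened to -2.81 to 2.22 and -0.96 to 1.16.

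FADS1 and FADS2 were low in a single old liver. FADS2 (ENSSSCG00000013072) had 55.7 and 65.6 CPM in young sows, 8.76 CPM in old replicate 1 and 58.4 CPM in old replicate 2. FADS1 (ENSSSCG00000024015) had 14.3 and 11.1 CPM in young sows, 1.2 CPM in old replicate 1 (74 reads) and 11.2 CPM in old replicate 2 (804 reads). Old replicate 2 lay between the young livers in both genes, so the age groups overlapped. On the log2 scale, old replicate 1 minus old replicate 2 was -2.60 in FADS2 and -2.47 in FADS1, and among 9790 mRNAs with a mean of at least 1 CPM a gap of at least this size in either direction was present in 1.51% and 1.79%. Young replicate 1 minus young replicate 2 was -0.23 and 0.34.

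The mean difference between the ages therefore rested on that library. The log2 fold change was -1.35 (standard error 1.03, 95% interval -4.48 to 1.78, adjusted p = 0.611, limma) for FADS2 and -1.40 (standard error 0.98, -4.38 to 1.59, adjusted p = 0.583) for FADS1. Without old replicate 1 these became -0.05 (95% interval -0.90 to 0.80) and -0.16 (-1.10 to 0.78). Without old replicate 2 a single old liver remained, so only fold changes are given for that fit. FADS2 was then at -2.65 in limma and -2.593 in the exact test of edgeR. FADS1 was at -2.63 and -3.196. ELOVL2 behaved differently within old sows, as it had 1.61 CPM in old replicate 1 and 0.306 CPM in old replicate 2, the lowest of the 4 values.

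FADS3, a paralog that desaturates sphingoid bases, was low and even. FADS3 (ENSSSCG00000013073) had 0.457 and 0.358 CPM in young sows and 0.406 and 0.39 CPM in old sows, from 25 to 42 reads per library. The log2 fold change was -0.01 (95% interval -0.36 to 0.34) and its sign turned with the scaling, to 0.05 under TMM. The pseudocount of 1 narrows this interval at so low a level, and with a pseudocount of 0.1 it was -0.91 to 0.87.

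**Figure D2:**
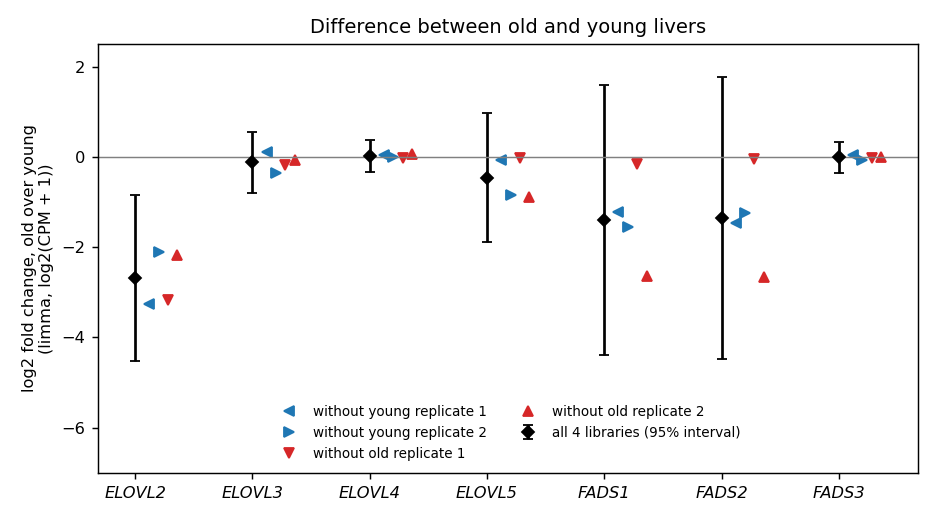
Log2 fold change of each matched gene in old over young livers on the log2(CPM + 1) scale, with black diamonds and 95% intervals of limma over all 4 libraries and triangles for the fits without 1 library. The values of ELOVL2 stay between -3.26 and -2.10, whereas those of FADS1 and FADS2 move to -0.16 and -0.05 when old replicate 1 is left out.

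All 7 genes passed the filter of a value above 0 in at least 2 libraries. None of the 7 passed the thresholds of an adjusted p-value under 0.05 and an absolute log2 fold change above 1 in limma, as was the case for 0 of the 16898 mRNAs tested (0.0%). At an unadjusted p-value under 0.05, 1 of the 7 was lower in old livers (ELOVL2) and 0 were higher, where 8.93% of all mRNAs tested were lower and 6.78% higher. In the exact test of edgeR, 1 of the 7 was called lower, against 0.32% of all mRNAs (2.04% were called higher). DESeq2 also called 1 lower, against 1.33% of mRNAs (4.51% were called higher), and the quasi-likelihood test called 0, against 0.0% of all mRNAs (3.08% were lower before adjustment, with a p-value under 0.05). The median log2 fold change of the 7 genes was -0.46, and that of all mRNAs tested was -0.02. ELOVL2 was the only 1 of the 4 genes with a mean of at least 1 CPM (ELOVL2, ELOVL5, FADS1 and FADS2) whose old livers were both below both young livers, a pattern shared by 32.9% of mRNAs at that level. All 4 were below both young livers in old replicate 1, as were 45.8% of mRNAs, and 1 of the 4 was in old replicate 2, as were 47.1%.

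Ratios of CPM between members within a library do not depend on how libraries are scaled, and 4 pairs were compared. Their tests used log2 ratios of CPM + 1, in which the pseudocount matters for a gene as low as ELOVL2. The CPM of ELOVL2 was 6.88% and 28.6% of that of ELOVL5 in young sows and 3.94% and 0.407% in old sows. Both old livers were below both young livers, by a mean difference of -2.22 in the log2 ratio of CPM + 1 (SD 1.37 in young and 1.32 in old livers). The exact two-sided permutation test gave p = 0.33, the smallest that 2 against 2 animals allow (adjusted p = 1.0 over the 4 pairs). The difference was -1.25 without young replicate 2, -1.29 without old replicate 2 and -3.24 with a pseudocount of 0.1. Against FADS2, ELOVL2 was at 12.5% and 25.4% in young sows while old sows had 18.4% and 0.524%, which overlapped (difference -1.33, exact permutation p = 1.0, and -2.29 with a pseudocount of 0.1).

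The ratio of the desaturases to each other spanned a smaller range. The CPM of FADS1 was 25.7% and 17.0% of that of FADS2 in young sows and 13.7% and 19.2% in old sows. The log2 ratio of CPM + 1 differed by -0.04 between the ages (exact permutation p = 1.0), although both genes were several times lower in old replicate 1. Its SDs were 0.40 in young and 0.10 in old livers. The pseudocount matters here too, as FADS1 was at 1.2 CPM in old replicate 1, and with a pseudocount of 0.1 the difference was -0.32. The ratio of ELOVL5 to FADS2 was highest in old replicate 1, at 467%, against 181% and 88.6% in young sows and 129% in old replicate 2 (difference 0.89, exact permutation p = 0.667). Without old replicate 1 the difference was 0.02, and without young replicate 2 it was 0.39.

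Markers of cell types differed from the young livers in both old livers, in ways that were not the same. The summed CPM of the 10 hepatocyte markers was 42900 and 53300 in young sows against 24100 for old replicate 1 and 38600 for old replicate 2. Of these 10 markers, 8 were below both young livers and 1 was above them in old replicate 1, and 5 were below and 1 above in the other old liver. Among mRNAs with a mean of at least 1 CPM, 45.8% were below and 31.3% above in old replicate 1. In old replicate 2 these shares were 47.1% and 28.1%. T and NK cell markers (4 matched genes of 7) summed to 221 CPM in old replicate 1 and to between 36.8 and 58.2 CPM in the other livers. Macrophage markers (5 of 8) summed to 232 and 254 CPM in young and to 340 and 375 CPM in old livers. Stellate cell and fibroblast markers (7 of 8) summed to 19.4 and 38.5 CPM in young and to 14.7 and 50.7 CPM in old livers. Cholangiocyte markers (4 of 6) summed to 9.4 and 11.8 CPM in young and to 7.51 and 19.0 CPM in old livers. Endothelial markers (4 of 7) summed to 39.4 and 35.5 CPM in young and to 65.7 and 39.5 CPM in old livers. These 4 markers were split. Against the young range, 2 were under it and 2 over it in old replicate 1. For old replicate 2, 2 were under it and 1 was over it. The part of these differences in the values of the members was not tested. On the log2 scale, old replicate 1 minus the young mean was -0.99 for the summed hepatocyte markers, -2.65 for FADS2 and -2.63 for FADS1.

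When each library was scaled to its mean log2 level of hepatocyte markers, the log2 fold change of ELOVL2 was -2.18 (95% interval -4.33 to -0.02, adjusted p = 0.413, limma), that of FADS2 was -0.77 (-3.04 to 1.51), that of FADS1 was -0.94 (-3.36 to 1.48) and that of ELOVL5 turned to 0.15 (-0.98 to 1.28). This scaling moved the median over all mRNAs from -0.02 to 0.20, and it was 0.12 in the tests of edgeR and 0.10 in DESeq2.

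**Figure D3:**
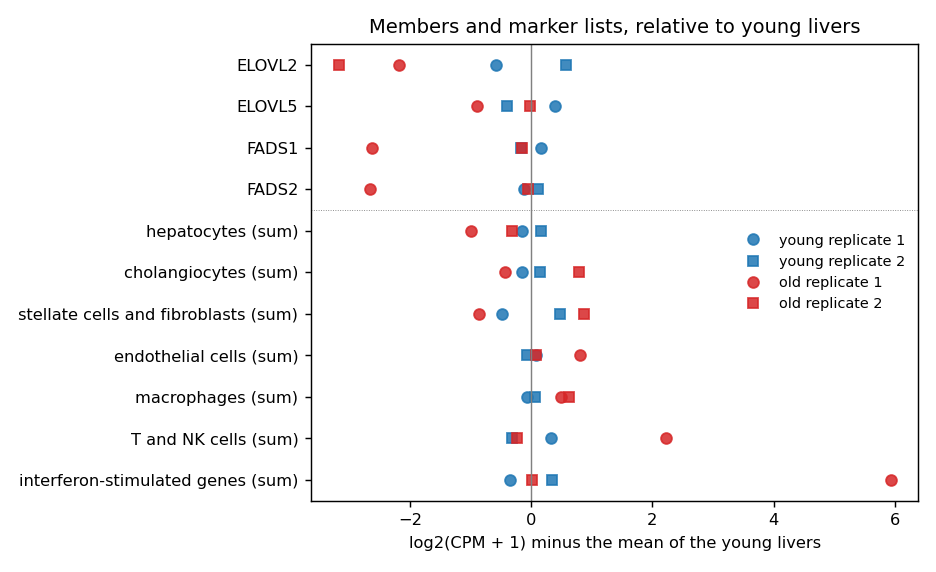
Level of 4 members and of summed marker lists in each liver as log2(CPM + 1) minus the mean of the young livers (blue, young; red, old; circles, replicate 1; squares, replicate 2). FADS1 and FADS2 lie at -2.63 and -2.65 in old replicate 1 and at -0.16 and -0.05 in old replicate 2, ELOVL2 is lower in both old livers, and the interferon-stimulated genes lie at 5.94 in old replicate 1.

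The other genes of the pathway were taken from 7 lists by role, 65 genes in all, of which 50 had an identifier and 48 could be tested. In limma 0 passed the thresholds. At an unadjusted p-value under 0.05, 5 were lower (CYB5A, ACAA1, ABCD3, ACSL1 and SLC27A2) and 5 higher in old livers (among them LPCAT4, FASN, SREBF2 and NR1H2), and LPCAT4, SREBF2, HACD4, ACSL6, TECRL and NR1H3 are named here after their values were seen. Over all mRNAs tested, 8.93% were lower and 6.78% higher at this level. The median log2 fold change over the 48 genes was 0.002, and -0.000425 with HACD4 (0 reads in both young livers) at its bound of at least 3.78-fold higher and ACSL6 (at most 2 reads in any library) left out. In edgeR's exact test 1 gene passed, FASN (higher), where 2.04% of all mRNAs were called higher and 0.32% lower. With estimateDisp NR1H2 and ACSL1 passed too, where 534 of the 16898 mRNAs tested were called. DESeq2 called these 3 genes and ABCD3, 2 higher and 2 lower, where 4.51% of mRNAs were called higher and 1.33% lower.

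Partners of the elongases in the elongation cycle showed no gene past the test. HSD17B12, the reductase after the condensing step, had 24.99 and 33.7 CPM in young sows and 14.5 and 20.4 CPM in old sows, which did not overlap (log2 fold change -0.72, adjusted p = 0.354, limma, and -0.13 when scaled to hepatocyte markers). HACD3, a dehydratase of the cycle, had 24.5 and 33.6 CPM in young and 22.2 and 33.2 CPM in old livers. TECRL was at 0 in all 4 libraries. Of the 3 tested partners, 1 was below both young livers in both old livers, as were 32.9% of mRNAs with a mean of at least 1 CPM.

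The electron donors of the desaturases differed among themselves. CYB5A, cytochrome b5, had 289 and 303 CPM in young sows and 160 and 159 CPM in old sows. Both replicates of each age were close, and the log2 fold change was -0.89 (standard error 0.11, unadjusted p = 0.00292, adjusted p = 0.213, limma), so CYB5A was low in both old livers whereas FADS1 and FADS2 were low in 1. When scaled to hepatocyte markers it was -0.27. CYB5R3, a cytochrome b5 reductase, had 8.66 and 8.83 CPM in young and 13.0 and 31.8 CPM in old livers (1.13, standard error 0.49, adjusted p = 0.404), and its fold change was 0.52 without old replicate 2 and 1.75 without old replicate 1.

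Among 7 tested genes of the peroxisomal steps to DHA, 6 had a log2 fold change below 0, where 52.9% of all mRNAs tested did, and 3 had both old livers below both young livers, near the 32.9% of mRNAs with a mean of at least 1 CPM that did. ABCD3, a fatty acid transporter of the peroxisomal membrane, had 21.1 and 28.9 CPM in young sows and 6.99 and 7.31 CPM in old sows (log2 fold change -1.66, standard error 0.20, adjusted p = 0.213, limma). ACAA1, the peroxisomal thiolase, had 176 and 178 CPM in young and 78.6 and 79.6 CPM in old livers (-1.15, standard error 0.11, adjusted p = 0.213). When scaled to hepatocyte markers, ABCD3 was at -1.08 and ACAA1 at -0.54. For both genes the old livers did not overlap the young livers.

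Fatty acids are joined to coenzyme A before they are elongated. ACSL1, the main long-chain acyl-CoA synthetase of liver, had 381 and 353 CPM in young sows and 89.0 and 104 CPM in old sows (log2 fold change -1.92, standard error 0.14, adjusted p = 0.213, limma). ACSL1 was past the thresholds in DESeq2 (-1.75, adjusted p = 7.15e-06) and in edgeR's exact test with estimateDisp (-1.73, adjusted p = 0.0418), but not with common and tagwise dispersions (adjusted p = 0.135). SLC27A2, a very long-chain acyl-CoA synthetase, had 29.5 and 38.4 CPM in young and 15.1 and 19.4 CPM in old livers (-0.93, adjusted p = 0.255). SLC27A4 was higher on average in old livers, mostly in old replicate 1 (2.33 and 1.47 CPM in young, 9.46 and 2.66 CPM in old livers). Hence ACSL1 and SLC27A2 were low in both old livers, and when scaled to hepatocyte markers their log2 fold changes were -1.31 and -0.34. Over these 6 genes the median log2 fold change was -0.24, and -0.51 with ACSL6 left out.

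Of 11 tested genes that place fatty acids in phospholipids, release them or carry them, 0 were lower and 1 was higher at an unadjusted p-value under 0.05. Among all mRNAs tested, 8.93% were lower and 6.78% higher at this level. LPGAT1, a lysophospholipid acyltransferase, had 42.8 and 27.99 CPM in young sows and 5.31 and 15.6 CPM in old sows (log2 fold change -1.80, standard error 0.60, adjusted p = 0.323, limma, and -1.10 without old replicate 1). MFSD2A, a transporter of lysophospholipids that carry DHA, had 60.1 and 21.3 CPM in young and 37.4 and 12.8 CPM in old livers. MBOAT7, which adds arachidonic acid to phosphatidylinositol, had 1.36 and 2.59 CPM in young and 2.57 and 3.73 CPM in old livers. The age groups overlapped in MFSD2A and MBOAT7.

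Of 6 tested genes for saturated and monounsaturated fatty acids, 1 was higher and 0 were lower (limma, unadjusted p-value under 0.05). Across the mRNAs tested, 8.93% passed this level as lower and 6.78% as higher. FASN, fatty acid synthase, had 1.15 and 0.774 CPM in young sows and 4.16 and 8.81 CPM in old sows. In limma its log2 fold change was 1.86, with a standard error of 0.39 (adjusted p = 0.241), and it was 2.95 (adjusted p = 0.0131, a rise past the thresholds) in the exact test of edgeR. ACLY, which supplies acetyl-CoA, had 6.86 and 2.21 CPM in young and 16.6 and 7.71 CPM in old livers (1.30, adjusted p = 0.453), and its fold change was 0.66 without young replicate 2 and 0.80 without old replicate 1. ACACA, which makes the malonyl-CoA used by FASN and by elongases, had 2.01 and 2.67 CPM in young and 1.98 and 4.02 CPM in old livers. Of all 6 tested genes, 2 (FASN and ACLY) had both old livers above both young livers. The share was 17.8% among mRNAs with a mean of at least 1 CPM, as 4 of the 6 had.

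The regulators on the list gave 0 lower and 2 higher of 11 tested at an unadjusted p-value under 0.05. Of all mRNAs tested, 8.93% were lower and 6.78% higher. NR1H2, the nuclear receptor LXR-beta, had 4.30 and 4.56 CPM in young sows and 15.6 and 14.9 CPM in old sows, and it passed in DESeq2 (1.96, adjusted p = 1.31e-05) but not in limma (1.58, adjusted p = 0.213). NR1H3, LXR-alpha, had 64.7 and 93.6 CPM in young and 74.8 and 83.6 CPM in old livers, so that the ages were apart in LXR-beta and overlapped in LXR-alpha. PPARA, a receptor that responds to fatty acids, had 27.9 and 17.0 CPM in young and 5.51 and 20.5 CPM in old livers, and was lowest in old replicate 1, as FADS1 and FADS2 were. ESR1, the oestrogen receptor, had 2.05 and 5.50 CPM in young and 10.97 and 6.15 CPM in old livers. SREBF2 had 1.37 and 1.35 CPM in young and 2.81 and 4.30 CPM in old livers (log2 fold change 0.93, adjusted p = 0.251, limma).

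**Figure D4:**
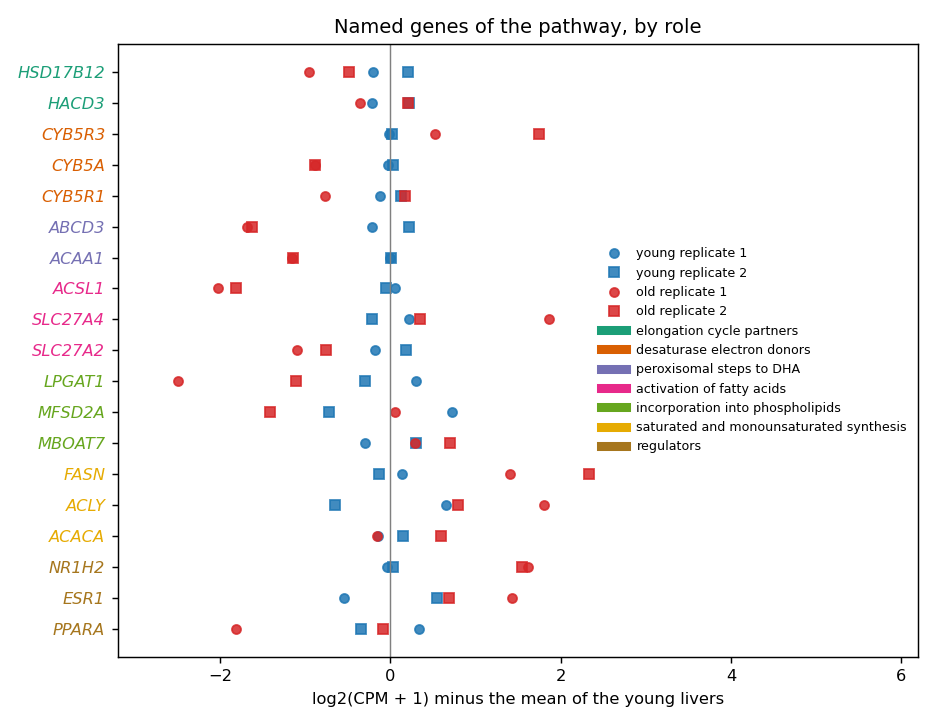
Named genes of the pathway lists as log2(CPM + 1) minus the mean of the young livers, with label colours for roles and 1 point per liver (blue, young; red, old; circles, replicate 1; squares, replicate 2). CYB5A, ABCD3, ACAA1 and ACSL1 lie below the young livers in both old livers, FASN and NR1H2 lie above them in both, and PPARA is low in old replicate 1 only.

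The mRNAs most like ELOVL2 were those with the smallest distance between centred log2(CPM + 1) profiles over the 4 libraries, among 6099 mRNAs with a symbol and a mean of at least 1 CPM. They were DMRT1, LEPR, PCYOX1, UGP2 and MT3, at distances from 0.84 to 0.97, where the median distance was 2.84. LEPR, the leptin receptor, had 5.53 and 7.53 CPM in young sows and 0.374 and 0.32 CPM in old sows. UGP2, which makes UDP-glucose, had 45.1 and 62.5 CPM in young and 8.56 and 9.30 CPM in old livers, and PCYOX1, a lyase of prenylated cysteines, had 52.3 and 48.8 against 11.6 and 6.22 CPM. DMRT1 had 26.3 and 37.7 against 6.92 and 5.46 CPM, and MT3, of the closely similar metallothionein genes whose reads may be shared, had 3458 and 5325 against 862 and 936 CPM. In limma each of these 5 genes had an adjusted p-value of 0.213, the smallest of any mRNA tested. They were chosen for a profile like that of ELOVL2, so their low levels in old livers are no separate result.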

How the data were processed

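Liver RNA-seq of 2 young and 2 old sows was analysed. The deposited CPM values come from the authors. They mapped filtered reads with TopHat2 2.0.14 on the Sscrofa10.2 build, assembled transcripts with StringTie 1.2.3, credit the values to Salmon 0.6.0 and name them TPM. In each deposited library 100.0% of values above 0 were whole reads times a single step (tolerance 0.0006 CPM), which gave the reads. Replicates were not pooled. Tables of circRNAs and miRNAs were not used here.

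Identifiers were paired with symbols from a gene name table. Old and young livers were compared with limma 3.58.1 (R 4.3.3) on log2(CPM + 1) over mRNAs detected in 2 or more libraries, and p-values were adjusted by Benjamini-Hochberg. edgeR 4.0.16 and DESeq2 1.42.0 were run on the reads. The limit for a count of 0 is 3 reads, and Poisson intervals are 95% exact. The members and gene lists were chosen with earlier results of these data known. Named pathway genes were the 3 with the largest absolute fold change in each list at a mean of at least 1 CPM, plus any past the thresholds, and 1 of them is not reported here. The alternatives covered pseudocount, filter, scaling, variance model, block, tool and leaving out each library. The exact test with estimateDisp and without each library was chosen after seeing the data.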

Additional observations from a re-analysis of the deposited data

How the results depend on the processing

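With 2 sows per age and 28324675 to 52207649 reads in listed mRNAs and lncRNAs per library, only large differences could pass. Counts under about 40 reads (ELOVL3, ELOVL4 and FADS3) limit those genes. The main fold changes used CPM as deposited. The TMM divisors of the CPM were 1.096 and 1.048 in young livers and 0.9324 and 0.9333 in old livers. Thus TMM scaling moved these log2 fold changes upward, in limma from -0.887 to -0.687 for CYB5A and from -1.152 to -0.953 for ACAA1. It moved HSD17B12 from -0.719 to -0.528, ELOVL2 from -2.681 to -2.548 and NR1H2 from 1.581 to 1.757. Same-numbered sows are unrelated, and across mRNAs the deviations of same-numbered libraries had r = 0.09. With the replicate block, limma called 0 mRNAs and the log2 fold change of ELOVL2 stayed -2.68 (adjusted p = 0.348), and the block changed no call. Nothing passed in limma under any pseudocount, scaling, trend or left-out library. Over mRNAs with a mean of at least 1 CPM it called 2 mRNAs and 0 members. The exact test of edgeR called 399 mRNAs, 1 member and 1 pathway gene. With estimateDisp it called 534, 0 and 3, and DESeq2 called 891, 1 and 4. Without 1 library, the exact test called from 99 to 1482 mRNAs (716 without young replicate 2, 297 without old replicate 2, 0 in limma) and from 0 to 2 members. The median of the pathway genes, 0.002, was 0.33 when scaled to hepatocyte markers, 0.21 in both edgeR exact tests and in the quasi-likelihood test, and 0.19 in DESeq2. The cause was not tested.

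ELOVL2 was lower in old livers under all 21 alternatives run. These reuse the same 4 libraries. As both old values lie below both young values, leaving out a library or changing the pseudocount could not turn its sign. With all 4 libraries ELOVL2 passed only in DESeq2 and in the exact test with common and tagwise dispersions. FADS3 reversed to 0.049 with TMM, 0.043 with DESeq2 size factors, 0.18 when scaled to hepatocyte markers, 0.17 in edgeR (0.169 exact, 0.168 with estimateDisp, 0.169 quasi-likelihood) and 0.15 in DESeq2, and ranged from -0.06 to 0.042 without 1 library. ELOVL5 reversed to 0.15 when scaled to hepatocyte markers. Without 1 library, ELOVL3 ranged from -0.36 to 0.12 and ELOVL4 from -0.029 to 0.068 in limma. Over both tests it was -0.89 to 0.17 for ELOVL5 (0.128 in the exact test without old replicate 1), -3.196 to 0.019 for FADS1 and -2.65 to 0.14 for FADS2. For the log2 ratios it was -3.13 to 0.47 for ELOVL2 to FADS2 and -0.33 to 0.24 for FADS1 to FADS2, and these 2 changed sign. It was -3.19 to -1.25 for ELOVL2 to ELOVL5 and 0.02 to 1.77 for ELOVL5 to FADS2.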
